A study of Mus musculus with 4 samples.

Results

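Among the p53 binding sites mapped by ChIP-Seq in murine hematopoietic progenitor lines, 902 of the 7384 deposited peaks were induced peaks in gene deserts. They were chosen by the peak number and by position. The number is the place of the peak in the study's own order, which sorts peaks by how much p53 binding rose with ionizing radiation (IR), the largest increase first, and the study counts the ranks used here among the peaks with increased binding. The fold changes behind that order were not used here. A member had a rank from 501 to 6501, and its centre lay outside every transcript of the GENCODE M1 annotation and more than 50000 bp from the nearest transcription start site (TSS). Ranks of members ran from 503 to 6493, with a median of 3777.5. The desert peaks next to those limits had ranks 497 and 6502. Of all 1014 peaks in deserts, 68 ranked before the range and 44 after it. The members closest to a TSS lay at 50014 and 50025 bp, and the intergenic peaks just short of the limit at 49973 and 49904 bp. The rank and the distance made the selection and were not tested.

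The study asked where p53 binds in hematopoietic progenitors, at rest and after genotoxic stress. Ba/F3 cells, an interleukin-3-dependent murine B cell progenitor line, were profiled for p53 untreated and at 3 h after 3 Gy of IR. The 2 other libraries were p53 in untreated HPC7 cells, a murine multipotent progenitor line derived from embryonic stem cells with the LIM-homeobox gene Lhx2, and the histone mark H3K27ac in irradiated Ba/F3 cells. Each condition had 1 library. All of the cells carried a triple-FLAG-tagged murine MYSM1, a deubiquitinase, under puromycin selection, so the untreated cells carried it too. p53 was precipitated with the 1C12 antibody, and input DNA was the control. The list analysed here holds a position of 100 bp and a rank for each peak. Read counts, signal and p-values of the peaks were not used here, so no depth stands beside a value, and with 1 library per condition no peak has a replicate check.

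p53 is a transcription factor that is stabilised after DNA damage. It binds as a tetramer to a response element made of 2 half-sites of 10 bases, each with a core of 4 bases that starts with C and ends with G. A CATG core is bent easily and is typical of strong sites. Copies of retroviral elements, which carry the same sequence at both ends, are a known source of p53 response elements in mammalian genomes. Gene deserts are long stretches between genes. Some of them hold distant enhancers, and they are usually rich in A and T.

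The sequences below are mm9 plus-strand sequence of single peaks, 100 bp each, with the best p53 site in capitals. Families 1 and 2, of 1155 and 266 peaks in the whole list, are groups joined by chains of similar sequence. The first sequence is the desert member with the most similar peaks of family 1, and the second that of family 2. The first resembled 932 other peaks and the second 101.
Peak 5854 (family 1, chr11:56409598-56409697): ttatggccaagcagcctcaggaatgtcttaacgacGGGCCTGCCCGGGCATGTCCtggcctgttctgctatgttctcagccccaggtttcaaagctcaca
Peak 4789 (family 2, chr9:27362435-27362534): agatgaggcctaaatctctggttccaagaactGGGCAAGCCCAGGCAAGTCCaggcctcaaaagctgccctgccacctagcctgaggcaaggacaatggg
The site of peak 5854 had 1 mismatch to the p53 consensus, in 20 bases, and that of peak 4789 had 0.

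The next sequences are members outside both families whose site had 0 mismatches, the 6 of lowest rank. They show that a site free of mismatches also stood in desert sequence that resembled no other peak.
Peak 933 (chr1:59488432-59488531): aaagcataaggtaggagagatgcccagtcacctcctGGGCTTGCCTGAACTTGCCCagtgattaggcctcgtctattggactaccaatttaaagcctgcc
Peak 980 (chr2:122771747-122771846): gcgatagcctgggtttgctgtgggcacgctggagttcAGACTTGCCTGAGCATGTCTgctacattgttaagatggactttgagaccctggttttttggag
Peak 1037 (chr8:99402836-99402935): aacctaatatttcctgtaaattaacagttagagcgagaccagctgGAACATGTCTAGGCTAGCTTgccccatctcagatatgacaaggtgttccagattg
Peak 1197 (chr4:123800640-123800739): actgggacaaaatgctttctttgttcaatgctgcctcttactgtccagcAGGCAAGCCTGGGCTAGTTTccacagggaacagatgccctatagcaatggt
Peak 1896 (chr10:111312390-111312489): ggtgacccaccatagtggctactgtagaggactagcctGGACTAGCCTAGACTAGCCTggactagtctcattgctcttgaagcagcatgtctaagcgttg
Peak 2279 (chr12:74590485-74590584): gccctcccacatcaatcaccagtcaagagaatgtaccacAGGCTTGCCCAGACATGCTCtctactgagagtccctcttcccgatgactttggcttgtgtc
The nearest protein-coding genes were Fzd7, a Wnt receptor, at 50510 bp from peak 933, and Sqrdl, a mitochondrial sulfide-oxidising enzyme, at 164061 bp from peak 980. For peak 1037 it was 1700047G07Rik at 366645 bp, and for peak 1197 it was Rragc, a GTPase of amino acid sensing, at 206000 bp. Krr1, a ribosome assembly factor, lay 97281 bp from peak 1896, and Tmem30b, a flippase subunit, 56848 bp from peak 2279.

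Deserts hold a large share of the genome and a smaller share of the peaks. They made up 719.9 Mb, 28.1% of the sequence of the assembly, and held 15% of the 6001 peaks of the rank range, 1.25 peaks per Mb (95% exact Poisson interval 1.17 to 1.34). Intergenic sequence from 1 to 50 kb of a TSS held 2.75 peaks per Mb and introns 2.38. Within 1 kb of a TSS, called promoters here, the density was 6.71 per Mb. Since position is part of the rule, these densities are a description.

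Split by family, the densities ran differently with distance. Peaks outside both families fell from 2.43 per Mb (2.17 to 2.72) at 1 to 5 kb of a TSS, through 1.36 at 25 to 50 kb, to 0.914 at 50 to 100 kb and 0.697 at 100 to 250 kb. Beyond 500 kb their density was 0.292 (0.151 to 0.510), from 12 members. Family peaks stood at 0.781 per Mb (0.634 to 0.953) at 1 to 5 kb and were highest, at 1.01 (0.841 to 1.19), at 5 to 10 kb. They then fell through 0.930 at 10 to 25 kb and 0.662 at 50 to 100 kb to 0.462 (0.278 to 0.721) beyond 500 kb, where they were 19 of 31 members. The intervals of the 2 kinds overlapped from 250 kb on.

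**Figure D1:**
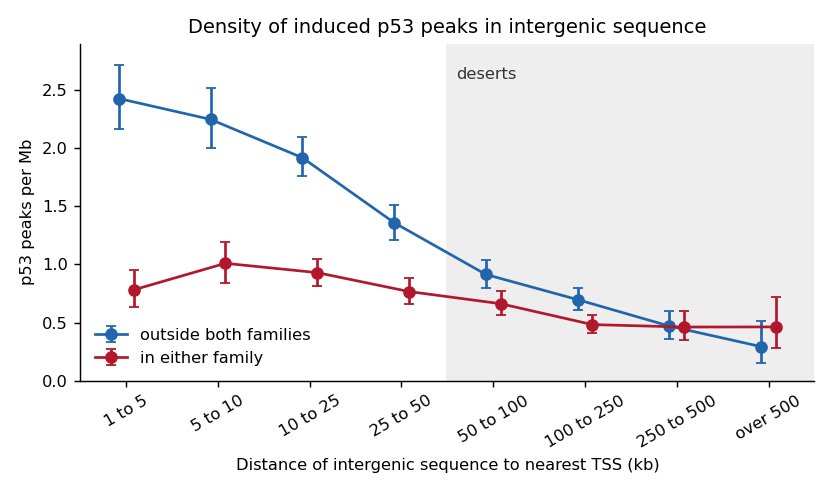
Induced p53 peaks per Mb of intergenic sequence (vertical axis) by the distance of that sequence to the nearest TSS in kb (horizontal axis), for peaks outside both families and peaks in either, with 95% exact Poisson intervals; the grey area is the deserts. Peaks outside the families fell from 2.43 to 0.292 per Mb, while family peaks went from 0.781 up to 1.01 at 5 to 10 kb and then down to 0.462.

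The median distance of members to the nearest TSS was 110899.5 bp, with quartiles at 71179 and 185127.5 bp. Of the 902, 495 were over 100 kb away, 150 over 250 kb and 31 over 500 kb. The nearest TSS belonged to a protein-coding gene for 481 members (53.3%), and to small nuclear or nucleolar RNA genes for 89 and 85. The median distance to a protein-coding TSS was 163739 bp.

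Chromosome 1 held 104 members, the most. Per Mb of desert, chromosome 19 was highest at 1.98 (1.28 to 2.92) and chromosome 10 next at 1.81 (1.42 to 2.28), while the X chromosome had 0.791 (0.517 to 1.16) and chromosome 15 had 0.798 (0.535 to 1.15). These are the extremes of 21 chromosomes, given as a description with no test. On the X chromosome 18 of 26 members (69.2%) were family peaks, against 43.2% of all members, and its density outside the families was 0.244 per Mb, against 0.711 over all deserts.

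Base content at members stood above that of the sequence around them. The 200 bp around the centre had a median GC content of 47.0%, with quartiles at 43.5 and 49.0%. The windows 10 kb to either side had medians of 41.0%, and 3597403 windows of 200 bp that tiled the deserts a median of 39.5%. GC was higher at the peak than 10 kb upstream for 650 of 901 members (72.1%). Over 20 kb the median was 41.2%, against 39.0% for 20 kb tiles of deserts. Across classes, the 200 bp median of members was close to that of intergenic peaks nearer genes and of introns, both 48.0%, and below the 55.0% of promoters. Outside the families described below, the medians were 45.0% for members, 48.5% for intergenic peaks nearer genes and 48.0% for introns.

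GC-rich and CpG-rich members were rare. A single member passed 60% GC, at 61.0%, against 244 of 712 promoter peaks. The ratio of observed to expected CpG was over 0.6 in 8 members (0.887%), compared with 31.0% of promoter peaks. Peak 515, the member at 61.0%, had as nearest protein-coding gene Id2, an inhibitor of helix-loop-helix factors, at 171052 bp. Family 1 and family 2 both had a median GC of 48.0%, and members outside them 45.0%. The 10 kb windows upstream of those outside had 42.5%, so the excess at the peak was smaller there than in the families, where the upstream medians were 39.0 and 39.8%.

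The p53 site was searched within 100 bp of the centre, as 20 bases without a spacer, with both C and G of each core intact and at most 3 mismatches. It was present in 678 of 902 members, 75.2% (Wilson 95% interval 72.2 to 77.9). Over all deposited peaks the share was 54.4%. In the windows 10 kb upstream of the members it was 0.887% (8 windows), and in all desert tiles 0.612%. The share of members with a site was thus higher than over the whole list, of which members are a part.

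Members carried the site more often than induced peaks elsewhere. The share was 65.5% in intergenic peaks nearer genes, a difference of 9.64 percentage points (Newcombe 95% interval 6.09 to 13, odds ratio 1.59, adjusted p = 1.6e-07, two-sided Fisher's exact test with Benjamini-Hochberg adjustment over 3 comparisons). In introns it was 59.5% (15.6 points lower, interval 12.1 to 19, adjusted p = 1.2e-16, same Fisher's exact test), and in promoters 33.7% (41.5 points lower, adjusted p = 2.0e-63, same exact test). Peaks are not replicates, and family members are linked by similar sequence. These p-values thus count peaks of a single list and do not measure the spread between cultures.

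Outside both families the order of the classes changed. Members had a site in 319 of 512 cases, 62.3% (58.0 to 66.4), against 52.7% for intergenic peaks nearer genes, 55.3% for introns and 32.0% for promoters. The odds ratios were 1.48 (adjusted p = 2.8e-04), 1.33 (adjusted p = 0.00491) and 3.52 (adjusted p = 3.5e-25), by the same Fisher's exact test over another 3 comparisons. With half-sites allowed up to 13 bases apart, the difference from introns was not significant (odds ratio 1.15, adjusted p = 0.275, Fisher's exact test).

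**Figure D2:**
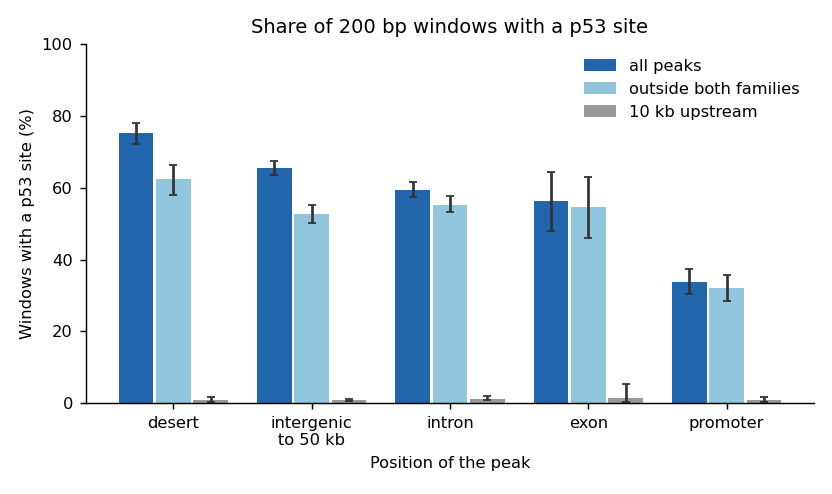
Share in percent of 200 bp windows with a p53 site (vertical axis) by the position of the peak (horizontal axis), for all peaks of the rank range, for peaks outside both families and for windows 10 kb upstream, with 95% Wilson intervals. Desert peaks stood highest at 75.2%, and at 62.3% outside the families, while the upstream windows of all 5 classes were at or under 1.48%.

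The sites were close to the peak centres and often near the consensus. The middle of the site lay a median of 9 bp from the centre, and 569 of 678 sites (83.9%) were within 25 bp. A site with 0 mismatches was found in 124 members (13.7%), with 1 in 298 (33.0%), with 2 in 161 (17.8%) and with 3 in 95 (10.5%). None of the upstream windows had a site with 0 or 1 mismatch.

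The families differed from the other members in the number of mismatches. Family 2 had 42 of 72 members (58.3%) at 0 mismatches, family 1 had 50 of 318 (15.7%) at 0 and 179 (56.3%) at 1, and members outside both had 32 of 512 (6.25%) at 0 and 96 (18.8%) at 1. Peak 933 and peak 4789, printed above, are examples with 0 outside and inside a family. At the other end, 94 members outside both families (18.4%) had over 8 mismatches or no pair of intact cores.

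**Figure D3:**
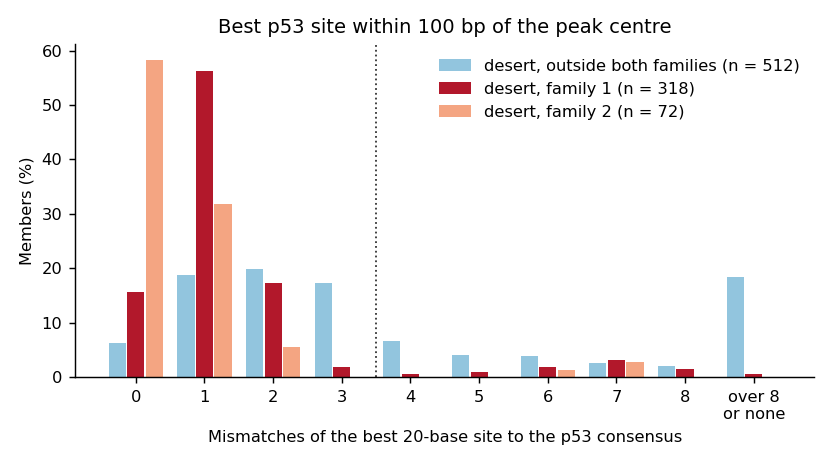
Share in percent of desert members (vertical axis) by the number of mismatches of the best 20-base site to the p53 consensus (horizontal axis), for members outside both families and members of family 1 and family 2; the dotted line marks the limit of 3. Family 2 peaks at 0 (58.3%) and family 1 at 1 mismatch (56.3%), while the other members spread from 0 to 3 and over.

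The bases within the cores also set the groups apart. Outside the families 401 of 638 half-sites (62.9%) had a CATG core and 178 (27.9%) a CTTG or CAAG core, and both half-sites were CATG in 134 of 319 sites (42%). In family 1, CATG made up 283 of 580 half-sites (48.8%) and CCTG or CAGG 212 (36.6%), as in the site of peak 5854, and only 3 sites had CATG in both half-sites. In family 2, 137 of 138 half-sites (99.3%) had CTTG or CAAG. For comparison, 59.0% of half-sites in intergenic peaks nearer genes and 59.9% of those in introns were CATG, outside the families.

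The 224 members without such a site still held parts of it. A site with a spacer of up to 13 bases was found in 103 (46.0%), against 10.7% in their upstream windows, and a half-site free of mismatches in 89 (39.7%), against 8.04%. Outside the families, 82 of 193 members without a site (42.5%) had neither, compared with 82.9% of their upstream windows. Median GC of these 193 was 46.0%, and 44.5% in the 319 with a site.

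Along the ranks, which were part of the rule, the share with a site was 66.4% in the 301 members of lowest rank number, 78.7% in the middle 301 and 80.3% in the last 300. The members outside the families, cut into 3 groups of like size at limits of their own (ranks 503 to 2068, 2085 to 3939 and 3941 to 6457), had 61.4, 59.6 and 65.9%, with intervals that overlapped. By distance to the TSS it was 74.4% at 50 to 100 kb, 76.2% at 100 to 250 kb and 74.7% beyond.

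Repeated sequence was common among the members. A window counted as similar to another when 100 bp or more of the pair aligned at an identity of 80% or higher, and chains of similar windows formed families. Families 1 and 2 together held 390 of 902 members, 43.2%, against 19.2% of all deposited peaks. The share in intergenic peaks nearer genes was 31.5% (odds ratio 1.65, adjusted p = 1.3e-09), in introns 11.8% (odds ratio 5.71, adjusted p = 2.2e-78) and in promoters 3.37% (odds ratio 21.8, adjusted p = 1.4e-86, two-sided Fisher's exact test adjusted over 3 comparisons). Of the remaining members, 29 belonged to smaller families and 483 (53.5% of all) resembled no other peak. Per Mb, family peaks were about as dense in deserts, 0.542 (0.489 to 0.598), as in the rest of the genome, 0.511 (0.479 to 0.545). In intergenic sequence nearer genes they were denser, at 0.866. Peaks outside the families were sparser in deserts, 0.711 per Mb against 2.26 in the rest, so the high family share went with few other peaks.

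Family 1 held 318 members (35.3%) and family 2 held 72 (7.98%). In intergenic peaks nearer genes the shares were 26.6 and 4.91%, and in introns 9.43 and 2.34%. A p53 site was present in 290 desert members of family 1 (91.2%) and in 69 of family 2 (95.8%). Outside deserts the same families had a site in 92.7 and 91.4% of their peaks, with intervals that overlapped those in deserts.

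The sites that recurred most often in family 1, with the strands counted together, are shown because each stood in many deserts.
Site found in 71 of 290 members, 1 mismatch: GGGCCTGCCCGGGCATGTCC
Site found in 36 members, 0 mismatches: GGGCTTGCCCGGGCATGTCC
Site found in 22 members, 1 mismatch: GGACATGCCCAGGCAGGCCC
These were 24.5, 12.4 and 7.59% of the family 1 sites. The most frequent site of family 2 was seen in 8 of 69 members (11.6%), and 45 different sites were found in the 69.
Most frequent site of family 2, 0 mismatches: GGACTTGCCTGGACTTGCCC
In family 1 the 290 sites comprised 93 different sequences.

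The shared sequence reached beyond the peak. Around peak 5854, at least 50% of the other 317 desert members of family 1 aligned from 400 bp before to 100 bp after the centre, a stretch of 500 bp. Around peak 4789, the stretch at that level in the 71 other members of family 2 was 400 bp, from 100 bp before to 300 bp after. The highest shares were 97.7 and 88.7%. Separate blocks aligned farther out, in up to 67.7% of the family 2 members at 725 bp before the centre, and in up to 41.6% of the family 1 members at 1625 bp after it. No repeat annotation was used, so the families carry no repeat name.

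**Figure D4:**
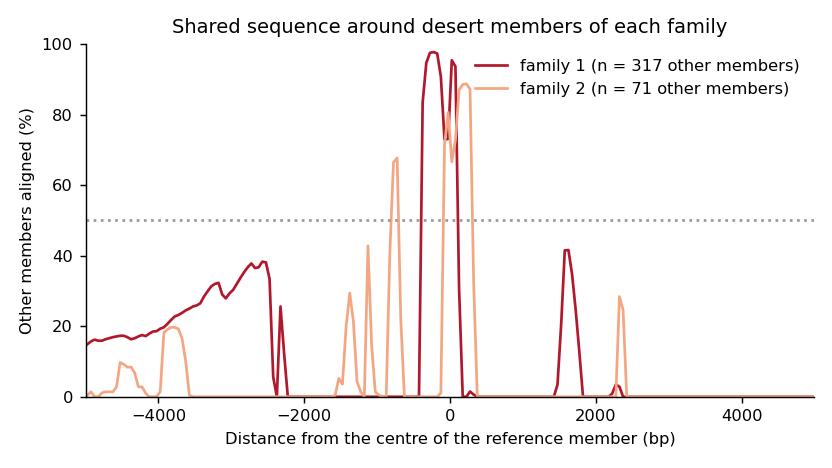
Share in percent of the other desert members of a family that aligned to the sequence around its reference member (vertical axis), by distance from the centre of that member in bp (horizontal axis), for family 1 and family 2; the dotted line marks 50%. The shared block spans 500 bp in family 1 and 400 bp in family 2, and separate blocks farther out reach 67.7% in family 2 and 41.6% in family 1.

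The genome was also searched for further copies of the 2 families, to see how many copies in deserts had a peak. Copies were stretches of 100 bp or more that matched, at an identity of 80% or higher, the most connected peak of the family, and a copy had a peak when any deposited peak was centred within 150 bp. The copies were thus found by their likeness to a bound one. Of 295 desert copies of family 1, 288 had a peak, 97.6% (95.2 to 98.8), against 98.5% of 749 copies elsewhere. The difference was -0.904 points (interval -3.43 to 0.766, adjusted p = 0.604, Fisher's exact test over 2 comparisons). For family 2 the search from 1 peak found fewer of the members, with 33 copies that had a peak beside 72 desert members, whereas for family 1 it found 288 beside 318. In deserts 33 of the 139 family 2 copies had a peak, 23.7% (17.4 to 31.5), against 25.4% of 284 elsewhere (difference -1.61 points, interval -9.89 to 7.43, adjusted p = 0.811, same exact test). At 90% identity over 150 bp the desert share of family 2 was 60%, from 5 copies. Neither difference was significant, and the intervals allow one of several points in either direction for family 2.

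Whether a copy had a peak varied with its site. With looser copies, at least 70% identity over 60 bp, 228 of 229 desert copies of family 1 with 0 or 1 mismatch had a peak (99.6%), and 19 of 35 (54.3%) with over 4 mismatches or no pair of intact cores. In family 2 the shares were 65 of 90 (72.2%) and 8 of 303 (2.64%). Elsewhere in the genome 84.7% of 176 family 2 copies with 0 or 1 mismatch had a peak, and the difference of deserts from elsewhere was -12.4 points (interval -23.5 to -2.24). This difference had an unadjusted p = 0.0216 and an adjusted p = 0.216 (two-sided Fisher's exact test over 10 comparisons, 5 mismatch classes in 2 families), a test added after the values were seen. None of the 10 passed after adjustment, and 1 had an unadjusted p under 0.05.

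**Figure D5:**
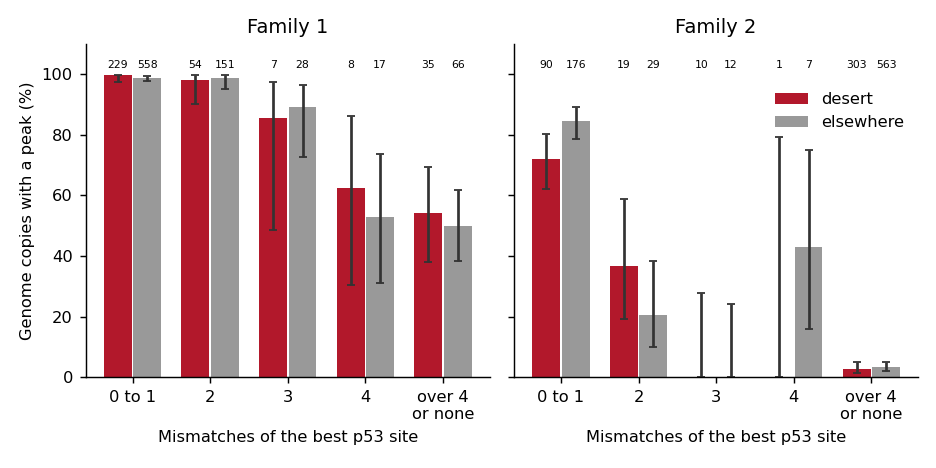
Share in percent of genome copies with a peak (vertical axis) by the number of mismatches of the best p53 site in the copy (horizontal axis), for family 1 (left) and family 2 (right), in deserts and elsewhere, with 95% Wilson intervals and the number of copies above each bar. Desert copies with 0 or 1 mismatch had a peak in 99.6% of cases in family 1 and 72.2% in family 2, and copies with over 4 mismatches or no pair of intact cores in 54.3 and 2.64%.

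How far reads can be placed in such sequence was measured by words of 50 bases, the length of each read of a pair per the labels, without use of the second read. In the windows of desert members of family 1 a median of 52.0% of words occurred once in the genome, and 49 windows (15.4%) had no such word. In family 2, 54 of 72 windows (75%) consisted of single-copy words only, and outside the families 480 of 512 (93.8%). How reads with several placements were handled is not given in the sources used here, and the part of placement in the family 1 peaks was not tested. Among the 545 members made of single-copy words only, a set chosen after seeing the data, 65.9% had a site and 11.9% were family peaks. The set leaves out repeated words by definition, and only 11 of the 318 family 1 members were in it. Its low family share therefore follows from the choice of the set.

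Members were mostly alone in their desert. The rule cut the genome into 4187 desert intervals, of which 676 held a member. A single member was found in 507 of them, 2 in 130, 3 in 26, 4 in 8 and 5 in 5. Density was highest in short intervals, 2.25 per Mb (1.95 to 2.58) under 100 kb, 1.30 from 100 to 500 kb, 0.950 from 500 kb to 1 Mb, and 0.779 (0.619 to 0.967) over 1 Mb. Outside the families it went from 1.35 to 0.342 per Mb over the same classes, and in the families from 0.902 to 0.437.

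The intervals with most members varied in length, and those with 5 spanned 0.405 to 1.44 Mb. The densest of those with 5 lay at chr9:61307745-61712344 between Tle3, a Groucho-type corepressor, and Rplp1, a ribosomal stalk protein, with 12.4 members per Mb. Of its 5 members, 4 were outside the families and 3 had a site. Peak 3760, 171474 bp from Tle3, was the family 1 member, and its site had 0 mismatches.
Site of peak 3760: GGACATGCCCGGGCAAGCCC
Peaks 3028 and 5402 had sites with 3 mismatches, at 206146 and 246955 bp from Rplp1. Peak 1690 had a site with a 1-base spacer, and peak 2570 had none.

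At chr3:31259301-31751428, between Slc7a14, a member of the cationic amino acid transporter family, and Kcnmb2, a potassium channel subunit, all 5 members belonged to family 1 and had a site. They lay 89834 to 180459 bp from the Slc7a14 TSS. Their sites are printed to show how copies in 1 locus differ.
Peak 1007, 2 mismatches: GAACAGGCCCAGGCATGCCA
Peak 4132, 1 mismatch: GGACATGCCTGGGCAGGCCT
Peak 3576, 2 mismatches: GTACATGCCCGGGCAGGTCT
Peak 5537, 1 mismatch: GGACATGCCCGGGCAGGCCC
Peak 5193, 2 mismatches: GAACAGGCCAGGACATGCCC
Peak 1007 resembled 31 other peaks and consisted of single-copy words, whereas the other 4 resembled 779 to 908 peaks and had 15.9 to 62.3% of words in single copy.

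Beside Cited2, which encodes a transactivator that binds CBP and p300, the interval chr10:16886611-17393033 held 5 members. Peaks 6340 and 6422, 398669 and 405853 bp from Cited2, were family 1 members with the same site of 0 mismatches, the one seen in 36 members, and neither had a single-copy word. Peak 3947 had a site with 3 mismatches at 241563 bp, and peak 5072, the closest at 106628 bp, had a site with a 1-base spacer. Peak 3307 had 4 mismatches.

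Further intervals among those with most members were chr3:47054550-48363022 between Pabpc4l and 1700018B24Rik, and chr18:48254990-49691502 between Gm5506 and Dtwd2, with 5 members each, 4 of them with a site in both. Intervals with 4 members included chr10:66433651-66474255 between Ctnna3, a catenin, and Reep3, and chr8:129167337-129418879 between Irf2bp2 and Tomm20, a mitochondrial import receptor. In both of these, 2 of the 4 members had a site. The longest desert interval, 2.28 Mb between Olfm4 and Pcdh17 on chromosome 14, held 2 members.

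Neighbouring members were often family 1 copies. Of 881 gaps between consecutive members on a chromosome, 0 were within 1 kb and 56 within 10 kb. Both peaks belonged to family 1 in 32 of these 56 pairs, 16 pairs had no family member and 8 were mixed. The family 1 pairs lay 1424 to 8357 bp apart, with a median of 6628.5 bp. In 24 pairs both copies had the same orientation, in 1 the opposite one, and in 7 the orientation could not be read. Peaks 6340 and 6422 beside Cited2 are such a pair.

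The 5 members farthest from a TSS included 3 of family 1. Peak 784 was the farthest, 1071992 bp from D3Ertd751e, and had 36.5% GC, a site of 3 mismatches and only single-copy words. Peak 4428 lay 975186 bp from Olfm4, a secreted glycoprotein gene, with a site that had a 1-base spacer. The family 1 members were peak 5825 at 785233 bp, peak 3850 at 757747 bp and peak 4430 at 730300 bp. In each case that nearest TSS belonged to a small RNA gene. Their nearest protein-coding genes lay farther off. These were Cntn5, a neural adhesion molecule, at 950746 bp, Dsc3, a desmosomal cadherin, at 1144782 bp, and Lrrtm3, a synaptic protein, at 944770 bp. Peak 5825 had no site, with 8 mismatches at best, while peak 3850 had 2 and peak 4430 had 1.
Peak 784 (chr3:42618590-42618689): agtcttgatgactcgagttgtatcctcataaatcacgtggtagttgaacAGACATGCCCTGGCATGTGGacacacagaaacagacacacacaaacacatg
Peak 4430 (chr10:64497743-64497842): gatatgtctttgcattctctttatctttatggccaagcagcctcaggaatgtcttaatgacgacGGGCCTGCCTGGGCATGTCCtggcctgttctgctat
Both are shown as desert sites far from any gene, the first single-copy and the second a copy of family 1.

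The nearest protein-coding genes of the members were 667 of 22225 annotated ones (3.00%), and 503 of them were nearest to 1 member. Most members fell to Dsel and Tbl1xr1, with 7 each, and Cited2 and Jmjd1c, with 6 each. Dsel, Tbl1xr1 and Jmjd1c, a histone demethylase gene, were picked after their counts were seen. Of the 7 members at Dsel, 6 were family peaks and all had a site. At Tbl1xr1, a subunit gene of the NCoR corepressor complex, the 4 members within 500 kb were outside the families, where 1 had a site and 1 a site with a spacer of 12 bases, and the 3 farther away were family 1 copies with 1 mismatch each.

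From a list of 42 regulators of blood cells, of which 40 matched the annotation, 8 were the nearest protein-coding gene of a member, with 12 members in all. Deserts had 23 of the listed genes as nearest gene of any of their sequence, so the 8 were 34.8% (18.8 to 55.1), beside 667 of 4278 (15.6%) for all protein-coding genes. The list includes genes that the study names for distal p53 binding in these data, Kitl, Runx1 and Gata3 among them. Part of the 34.8% was thus set by the choice of the list, and the 2 shares were not tested against each other. Kitl, which encodes stem cell factor, had peak 4146 at 78279 bp, with 1 mismatch.
Site of peak 4146, near Kitl: AGGCATGTCTGTACATGCTC
Runx1, a master regulator of definitive hematopoiesis, had peak 5347 at 169815 bp with 1 mismatch, and peak 5070 at 366951 bp without a site.
Site of peak 5347, near Runx1: ATGCTAGCCCAGGCATGTTT
Gata3, a T cell regulator, had peaks 874 and 4269 at 177142 and 755713 bp, with 2 mismatches each. Etv6, a repressor required in hematopoietic stem cells, had peak 1840 at 68244 bp with 2 mismatches, and Ikzf2, an Ikaros family gene, peak 2941 at 185372 bp, also with 2. Id2 had peaks 515 and 2887 at 171052 and 391665 bp. Zeb2 had peaks 3804 and 5820 at 87222 and 1625213 bp, and Tox had peak 1662 at 199884 bp. Of these, peak 2887 had 3 mismatches and peak 5820, a family 1 copy, had 1, while peaks 3804 and 1662 had no site and peak 515 had one only with a spacer of 11 bases. In all, 11 of the 12 were outside the families, beside 512 of all 902 members. The list gives proximity alone, with no measure of expression.

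None of 31 known p53 target genes was the nearest protein-coding gene of a member. Deserts had 11 of these genes as nearest gene, and 0 of 11 allows a share of up to 27.3%, by a limit of 3 counts.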

How the data were processed

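The deposited peak list gave, per the file's columns, a position and a peak number for each p53 peak, which are coordinates and a rank with no other unit. The authors mapped reads to mm9 with Bowtie 1.0.0 and called peaks with MACS 1.4.1 against input DNA. How peaks of several libraries were merged is not given in the sources used here. The members and gene lists were chosen with earlier results of these data known. From the list, each peak was assigned to a class by GENCODE M1 on NCBIM37 (mm9). Windows were 200 bp. Windows were aligned with BLAST+ 2.17.0 (word 11, E value 1e-10). Intervals are 95% and cover counting error only. Tests were two-sided Fisher's exact tests (SciPy 1.17.1, threshold 0.05). Methods were tested on simulated data. Alternatives changed the distance, the annotation, the rank range, the site, the similarity limit and the copies. Genes were named as those flanking the 8 intervals with most members, those nearest to the 5 farthest members and to the members with the closest sites, and those of 2 lists, with 3 genes added for their counts; 1 of the 8 intervals is not reported here. The histone mark and the HPC7 library have no column of their own and were not analysed here.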

Additional observations from a re-analysis of the deposited data

How the results depend on the processing

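Of 75 comparisons of deserts with another class under an alternative, 74 kept their direction and their side of the threshold; the exception was the site share outside the families against introns with a spacer of 0 to 13 bases (odds ratio 1.15, adjusted p = 0.275, Fisher's exact test). The number of desert peaks was 1417 at 25000 bp from a TSS, 495 at 100000 bp, 1388 with protein-coding transcripts alone and 545 with only single-copy words, and their density was 1.47, 1.07 and 1.38 per Mb under the first 3 and 1.36 with ranks 1 to 6600. The site share was 64.6% with 2 mismatches, 79.2% with 4, 86.6% with a spacer, 70.8% within 50 bp and 65.9% with only single-copy words; outside the families it was 44.9, 68.9, 80.5 and 58.0% under the first 4. The share in the control windows was 0.443% downstream, and upstream 0.111% with 2 mismatches, 2.22% with 4 and 9.20% with a spacer. The family share was 34.5% at 90% identity and 11.9% with only single-copy words. Median GC was 42.5% over 2000 bp and 45.0% outside the families. Copies with a peak were 93.4% in family 1 at 70% identity over 60 bp, and 60% in family 2 at 90% identity over 150 bp, from 5 copies. Intervals with at least 4 members numbered 13, and 51 with protein-coding transcripts alone. Pairs within 10 kb numbered 56, and 16 outside the families. The single-copy set was chosen after seeing the data, and its comparisons are among the 75. It leaves out repeated words by definition, so its family share is low by construction. Depth was not used here and each condition has 1 library, so no result has a replicate error. No paired analysis was possible because each condition has 1 library and the list has no column per library.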
